A study of Bos grunniens with 18 samples.

Results

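The 7 genes at the head of the red cell programme that were followed here in the blood of yaks in anestrus, estrus and pregnancy were the transcription factors *GATA1*, *TAL1*, *LMO2*, *KLF1*, *GFI1B* and *NFE2*, and *EPOR*, the receptor for erythropoietin. They were taken by gene name, and each name matched 1 of the 20607 genes of the deposited table, so all 7 members were found. Whole blood came from adult female yaks (*Bos grunniens*) of 4 to 8 years, with 6 libraries in anestrus (Y-A group), 6 in estrus (Y-E group) and 6 in pregnancy (Y-P group). The methods describe blood samples tracked through the stages, with 6 cows selected for sequencing. Estrus was synchronised with a progesterone pessary, a prostaglandin analogue and GnRH, and pregnancy followed timed artificial insemination. Estrus and pregnancy here thus came after hormone treatment. No sorting of cells and no depletion of globin transcripts was described, and each library is therefore a mixture of every blood cell that carried polyadenylated RNA.

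GATA1 is the zinc finger factor without which red cell precursors do not mature. It acts in a complex with TAL1, a basic helix-loop-helix protein, and LMO2, the LIM-domain adaptor that holds the complex together. KLF1 switches on globin, heme synthesis and membrane skeleton genes in late erythroid precursors, GFI1B is a repressor that recruits histone-modifying enzymes, and NFE2 is the large subunit of a leucine zipper factor that binds the globin locus control region and is also required for platelet release. EPOR is displayed on early erythroid progenitors, where its ligand keeps them alive through JAK2 and STAT5. Several of these factors have other homes in blood: GATA1, TAL1, GFI1B and NFE2 in megakaryocytes, GATA1 in eosinophils and basophils, NFE2 in myeloid cells, and LMO2 in B cells and endothelium.

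In the genome annotation used by the authors, the genes lay apart from each other and no other gene overlapped them. *TAL1* (ENSBGRG00000000873) lay on the plus strand of chromosome 3 from 107843167 to 107856434, and *GFI1B* (ENSBGRG00000015879) on the plus strand of chromosome 9 from 12357828 to 12362036. *GATA1* (ENSBGRG00000019786) lay on the plus strand of chromosome X from 94543663 to 94554468. *NFE2* (ENSBGRG00000004167) was on the minus strand of chromosome 5 from 82016708 to 82020834, and *LMO2* (ENSBGRG00000019008) on the minus strand of chromosome 13 from 15925554 to 15941071. *KLF1* (ENSBGRG00000006745) and *EPOR* (ENSBGRG00000012531) shared chromosome 8, both on the minus strand, from 11589318 to 11593828 and from 16264605 to 16270921.

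The libraries held 30247267 to 48401076 counts. Genes annotated to the hemoglobin complex, 6 in the table, took between 3.10% and 16.7% of the counts in the Y-A group, between 0.0899% and 8.36% in the Y-E group and between 0.0272% and 0.376% in the Y-P group. One library stood apart from its stage. Y-E replicate 6 had a hemoglobin share of 8.36%, while the other 5 estrus libraries reached at most 0.713%, and results that rest on it are given with and without it. The study's own listings of reads and of FPKM values per library leave out this library, and no reason is given in the sources used here. Within the Y-A group, replicate 6 held the highest share (16.7%) and replicate 1 the next (12.1%). Leukocyte markers were present in each library. *CD3D*, a subunit of the T cell receptor complex, was at 185 CPM or more (CPM, counts scaled to a common library total). *MS4A1*, which encodes the B cell surface protein CD20, was at 154 CPM or more. These markers show T and B cells and cannot tell whole blood from another tissue that holds both.

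Levels of the 7 genes are compared as FPKM, a unit that takes gene length into account. Over the 18 libraries the mean level fell from *NFE2* (198 FPKM) through *LMO2* (41.8), *GATA1* (22.5), *GFI1B* (10.4), *TAL1* (8.56) and *KLF1* (4.77) to *EPOR* (0.101). This order pools the stages, and in the Y-A group alone the mean of *KLF1* (10.2 FPKM) lay above that of *GFI1B* (9.66), against 0.856 and 10.2 FPKM in the Y-P group. Without Y-A replicate 6 the *EPOR* mean was 0.0376 FPKM. *NFE2* exceeded *LMO2* in 18 of 18 libraries and *GATA1* exceeded *GFI1B* in 18 of 18, so these steps were larger than the spread. *LMO2* lay above *GATA1* in 16 of 18 libraries and *TAL1* above *KLF1* in 16 of 18. *GFI1B* and *TAL1* were neighbours that could not be ordered, since *GFI1B* was the higher in 13 of 18 libraries and the log2 ratio of the pair averaged 0.35 with a standard deviation (SD) of 0.75.

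**Figure D1:**
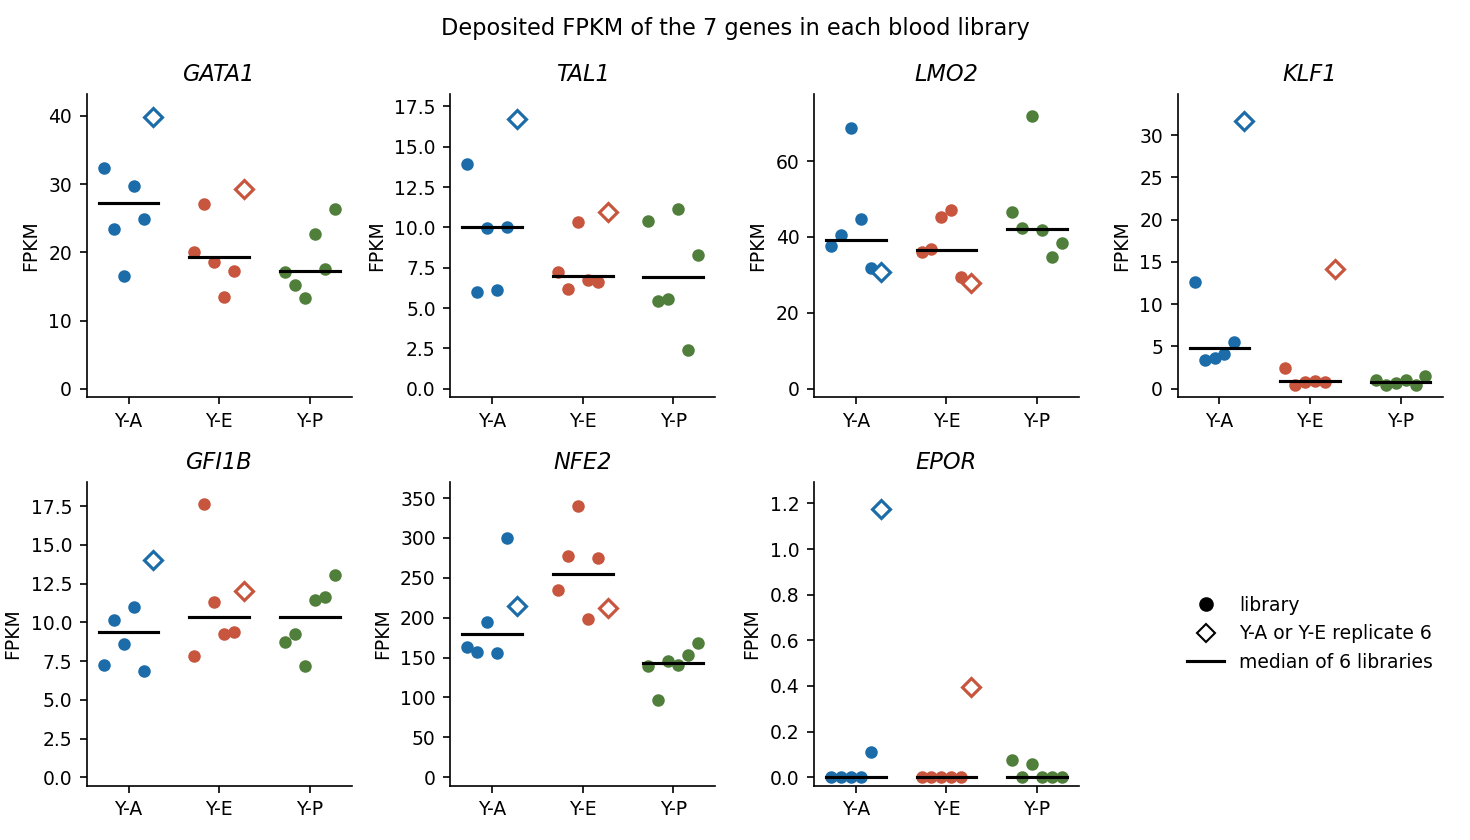
Each point is the FPKM (vertical axis, linear, a separate scale for each gene) of 1 library in anestrus (Y-A), estrus (Y-E) or pregnancy (Y-P), the bar is the median of 6 libraries, and diamonds mark replicate 6 of the Y-A and Y-E groups. All 6 pregnancy libraries sit below all 6 anestrus libraries for *KLF1* and below all 6 estrus libraries for *NFE2*, the diamonds are the highest *KLF1* and *EPOR* points of their stages, and the *EPOR* median is 0 in each stage.

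Differences between stages were tested on the counts in 1 edgeR quasi-likelihood fit over 14508 genes that passed a low-count filter, with Benjamini-Hochberg adjustment within each comparison. A gene was called where its adjusted p was under 0.05 and its log2 fold change was at least 1 in size. Of the members 6 entered the fit, all but *EPOR*. None of the 6 was called in the Y-E vs. Y-A comparison, where edgeR called 0.0138% of all tested genes (0.0207% by adjusted p alone), and 900 genes (6.2%) had an unadjusted p under 0.05, *KLF1* among them. One member, *KLF1*, was called as lower in the Y-P vs. Y-A comparison against a background of 1.43% of genes called (1.09% called as lower), and 1 member, *NFE2*, was called as lower in the Y-P vs. Y-E comparison against 2.67% (2.22% called as lower). By adjusted p alone, 3 members (*KLF1*, *GATA1* and *NFE2*) were lower in the Y-P than in the Y-A group, where 5.83% of genes passed (3.61% as lower and 2.22% as higher). In the Y-P vs. Y-E comparison 14.4% of genes passed by adjusted p (8.68% as lower and 5.77% as higher), *NFE2* among them. No member passed as higher in any comparison. The median log2 fold change of the 6 tested members was -0.30 for estrus against anestrus, -0.75 for pregnancy against anestrus and -0.37 for pregnancy against estrus, and that of all tested genes, in the same order, was -0.01, 0.03 and 0.04. All 3 comparisons draw on the same libraries, so their values are not independent of each other. Without composition scaling, with library size only, the median of all genes rose to 0.19 for pregnancy against anestrus and 0.18 for pregnancy against estrus, and differences of that size in the slowly varying members have to be read against it. Because these were bulk samples, a smaller number of cells of a type and a smaller amount of RNA per cell cannot be told apart.

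**Figure D2:**
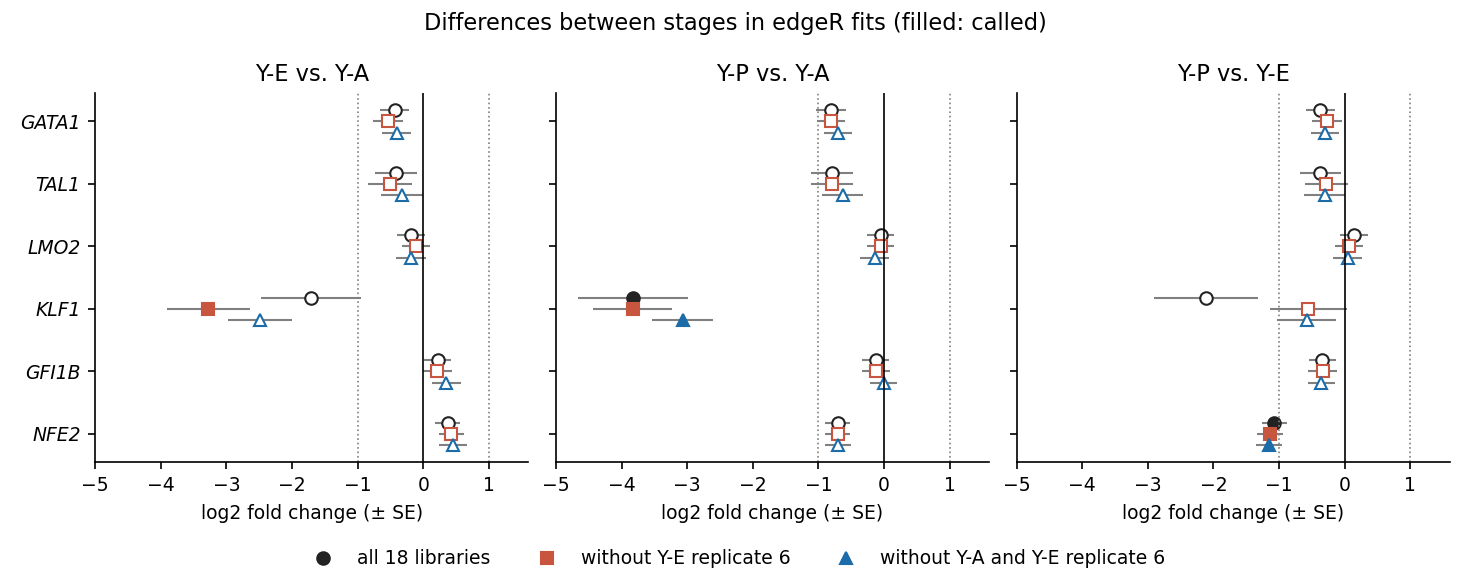
Log2 fold change (horizontal axis) with its standard error for the 6 tested members in the 3 stage comparisons, from edgeR fits with all 18 libraries (circles), without Y-E replicate 6 (squares) and without replicate 6 of both the Y-A and the Y-E group (triangles). Filled symbols are called, and dotted lines mark a log2 fold change of 1 in either direction. *KLF1* is the member whose estrus estimates move most with the library set, from -1.72 to -3.27 in Y-E vs. Y-A when Y-E replicate 6 is left out.

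*KLF1* had the highest ratio of highest to lowest FPKM among the transcription factors. Its FPKM in the Y-A group ran from 3.41 through a median of 4.80 to 31.7, in the Y-E group from 0.462 through 0.892 to 14.2, and in the Y-P group from 0.418 through 0.849 to 1.52. The highest value of each of the first 2 stages belonged to replicate 6, and without it the Y-E libraries reached at most 2.42 FPKM, below the lowest Y-A library. All 6 Y-P libraries lay below all 6 Y-A libraries, which was the case for 2.32% of tested genes. In counts, the Y-P libraries held 29 to 77 *KLF1* reads each and the Y-A libraries 191 to 1510.

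From anestrus to pregnancy *KLF1* fell by 3.83 on the log2 scale (standard error, SE, 0.84; adjusted p = 0.0149 by edgeR's quasi-likelihood test), a 14.2-fold lower level. It was called in each of 18 fits that left out 1 library, with log2 fold changes from -4.06 to -3.07. The smallest of these came without Y-A replicate 6, at an adjusted p of 0.0307 in edgeR.

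In the fits without a block, the estrus values of *KLF1* depended on 1 library. With all libraries the Y-E vs. Y-A difference was -1.72 (SE 0.76), with an unadjusted p of 0.0360 and an adjusted p of 0.739 in edgeR, and the gene was not called. Without Y-E replicate 6 the difference was -3.27 (adjusted p = 0.0472, edgeR) and *KLF1* was called, beside 0.123% of all genes. Blocking on the replicate number gave a difference of -2.19 (adjusted p = 0.0271, edgeR), also called, beside 0.0758% of all genes. With the block and without Y-E replicate 6 it was -2.61 (adjusted p = 0.00339, edgeR), called beside 34 of 14653 tested genes. In every same-numbered pair the *KLF1* CPM was lower in the Y-E than in the Y-A library. In fits without a block the difference was -0.97 without Y-A replicate 6. With replicate 6 left out of both groups it was -2.49 (adjusted p = 0.0686, edgeR). In the Y-P vs. Y-E comparison *KLF1* stood at -2.11 (SE 0.79; adjusted p = 0.0798, edgeR) and, without Y-E replicate 6, at -0.55 (adjusted p = 0.594, edgeR).

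*GATA1* varied far less. Its FPKM ran from 16.5 through 27.3 to 39.9 in the Y-A group, from 13.4 through 19.3 to 29.2 in the Y-E group and from 13.3 through 17.3 to 26.3 in the Y-P group. The stages overlapped, and the highest library of the Y-A and of the Y-E group was again replicate 6. *GATA1* was 1.75-fold lower in the Y-P than in the Y-A group (log2 fold change -0.81, SE 0.22; adjusted p = 0.0402, edgeR), a difference below the size required for a call. Leaving out 1 library at a time gave adjusted p values from 0.0193 to 0.0787 in edgeR, under 0.05 in 9 of 18 fits. The passing fits were those without any 1 of the 6 Y-E libraries, Y-A replicates 2 and 3 and Y-P replicate 6. With library size only the difference was -0.61 (adjusted p = 0.0576, edgeR), and with a block on the replicate number it was -0.78 (adjusted p = 0.0230, edgeR). The Y-E vs. Y-A (-0.44, adjusted p = 0.834) and Y-P vs. Y-E (-0.37, adjusted p = 0.286) differences of *GATA1* did not pass the edgeR test.

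The ratio of *KLF1* to *GATA1* within a library removes whatever both genes share in their scaling. In FPKM, the Y-A libraries held 0.139 to 0.795 *KLF1* per *GATA1* with a median of 0.222, the Y-E libraries 0.0171 to 0.485 with a median of 0.0598, and the Y-P libraries 0.0250 to 0.0623 with a median of 0.0475. No Y-P library reached the lowest Y-A library. The mean log2 ratio was 2.62 lower in the Y-P than in the Y-A group, which gave p = 0.00216 in a two-sided exact permutation test (adjusted over 3 comparisons, 0.00649), the smallest p that 6 against 6 libraries allow. For Y-E vs. Y-A the log2 difference of -1.85 gave p = 0.0433 in the exact permutation test and an adjusted p of 0.0649. Without Y-E replicate 6 the same difference was -2.40, with an exact permutation p of 0.00433 and an adjusted p of 0.00649. The Y-P vs. Y-E difference was -0.77 (exact permutation p = 0.331). These exact tests took the libraries as independent and did not pair them by replicate number. *KLF1* thus dropped by more than *GATA1* from anestrus to pregnancy, while the direct *GATA1* difference in the same comparison stayed under 1 on the log2 scale.

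*TAL1* and *LMO2* encode the helix-loop-helix and LIM-domain partners of GATA1. *TAL1* ran from 6.01 through 10.0 to 16.7 FPKM in the Y-A group, from 6.18 through 7.01 to 11.0 in the Y-E group and from 2.43 through 6.92 to 11.2 in the Y-P group. The ranges overlapped, and 1 library, Y-P replicate 5, held the lowest value. The *TAL1* difference was -0.42 for estrus against anestrus, -0.79 (SE 0.32, adjusted p = 0.140) for pregnancy against anestrus and -0.37 (adjusted p = 0.472) for pregnancy against estrus, and none passed the edgeR test.

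*LMO2* ran from 30.6 through 39.1 to 68.7 FPKM in the Y-A group, from 27.8 through 36.5 to 47.0 in the Y-E group and from 34.6 through 42.1 to 71.9 in the Y-P group. Replicate 3 held the highest value of the Y-A and of the Y-P group, well above the other 5 libraries of each. The lowest values of the Y-A and Y-E groups belonged to replicate 6, the libraries with the highest *KLF1*. No *LMO2* difference passed the edgeR test: -0.19, -0.05 and 0.14 in the order above, with SE of 0.21 each, and adjusted p of 0.999, 0.913 and 0.718. The sign of the pregnancy differences changed when single libraries were left out and, for Y-P vs. Y-A, with library size only (0.09).

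*GFI1B* lay at 6.89 to 14.0 FPKM in the Y-A group (median 9.40), 7.83 to 17.6 in the Y-E group (median 10.4) and 7.16 to 13.0 in the Y-P group (median 10.4). These ranges overlapped widely. In the order used for *LMO2*, its differences were 0.22, -0.12 and -0.34, with adjusted p of 0.999, 0.771 and 0.294 in edgeR, and the second was 0.05 with library size only.

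*NFE2*, the most abundant of the 7, had its highest median FPKM in the Y-E group. Its FPKM ran from 155 through 179 to 299 in the Y-A group, from 199 through 255 to 340 in the Y-E group and from 96.3 through 143 to 168 in the Y-P group. In FPKM the highest Y-P library lay below every Y-E library but above the lowest Y-A library. In CPM, scaled by edgeR, all 6 Y-P libraries lay below all 6 Y-E libraries and below all 6 Y-A libraries, which held for 3.84% and 2.32% of tested genes. *NFE2* was 2.11-fold lower in the Y-P than in the Y-E group (log2 fold change -1.07, SE 0.19; adjusted p = 0.00160, edgeR). The adjusted p was at most 0.00515 in all 29 alternatives, but the size of 1 on the log2 scale was missed in 4 of them, without Y-E replicate 3 (-0.95), with library size only (-0.92) and with limma on log2(FPKM + 1) and on log2(FPKM + 0.1) (-0.86 in both). *NFE2* was also lower in the Y-P than in the Y-A group (log2 fold change -0.71, SE 0.19; adjusted p = 0.0356, edgeR), under the size required for a call. That adjusted p was under 0.05 in 13 of 18 fits that left out a library, and between 0.0566 and 0.0869 in edgeR without Y-A replicate 5 or 6 or Y-P replicate 2, 4 or 5. With library size only the adjusted p was 0.0568, and with a block on the replicate number it was 0.0201 (edgeR). The Y-E vs. Y-A difference of 0.37 (SE 0.19; adjusted p = 0.841, edgeR) did not pass.

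*EPOR* was at 0 counts in 13 of 18 libraries. In the Y-A group 4 libraries held 0 counts, replicate 5 held 12 and replicate 6 held 107. In the Y-E group 5 libraries held 0 counts and replicate 6 held 52. In the Y-P group replicate 1 held 7 counts, replicate 3 held 9 and the other 4 held 0. The 95% Poisson intervals, which cover counting error only, were 87.7 to 129 for the 107 counts and 38.8 to 68.2 for the 52, so both stood above every other library. The floor for a count of 0 was taken as 3 counts, which is 0.0620 to 0.0992 CPM of the raw library totals, without edgeR's scaling, and the 95% Poisson interval of a count of 0 reached 3.69 counts. No library held between 1 and 6 *EPOR* counts, although 1070 to 1931 genes of each library did. In an edgeR fit without the low-count filter the *EPOR* differences were -1.73, -3.28 and -1.54 in the 3 comparisons, with adjusted p of 0.933, 0.334 and 0.661, and none passed.

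In the Y-A and Y-E groups the library with the most *EPOR* counts, replicate 6, was also the one with the most *KLF1*. In the Y-P group it was not, since replicate 6 held the most *KLF1* (77 counts) and 0 *EPOR* counts. *EPOR* counts as given did not follow the hemoglobin share alone. Y-A replicate 1, with a hemoglobin share of 12.1% and 23.1 CPM of *KLF1*, held 0 *EPOR* counts, and Y-E replicate 6, with 8.36% and 22.5 CPM, held 52. Y-A replicate 1 also held the most genes at 0 counts of any library (5457) and the fewest with 1 to 6 counts (1070). Whether its 0 for *EPOR* came from weaker detection of low levels was not tested.

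**Figure D3:**
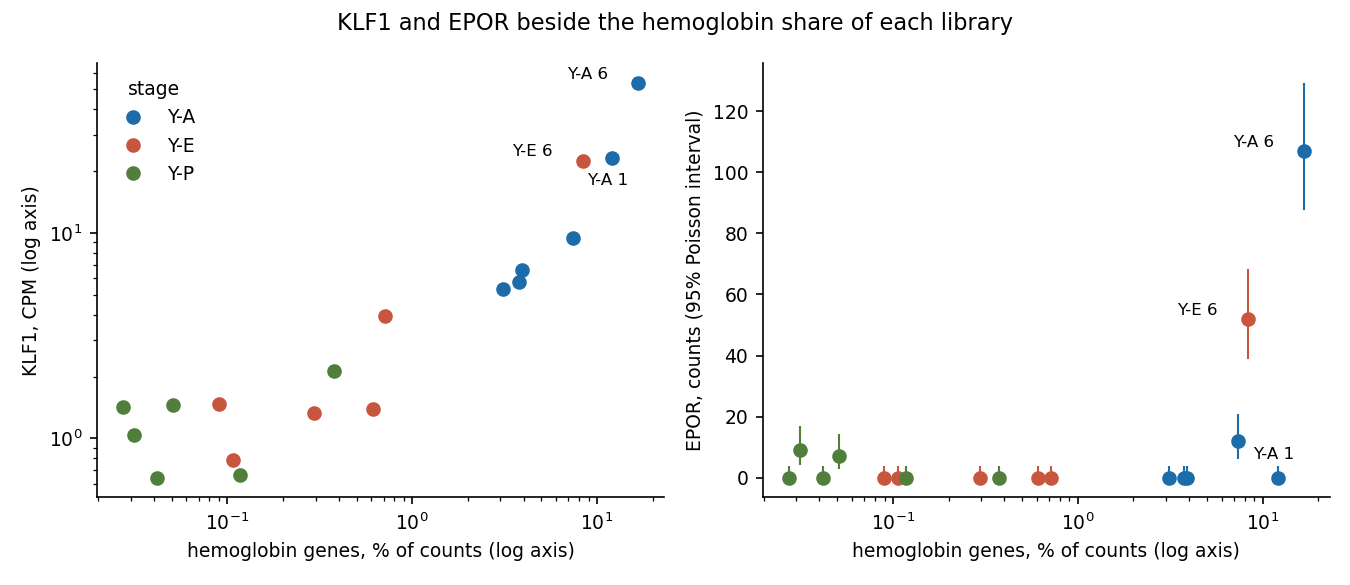
Left, *KLF1* in CPM (log axis) and right, *EPOR* counts with 95% Poisson intervals (linear axis), each against the percent of a library's counts in hemoglobin genes (log axis), 1 point per library and coloured by stage. Y-A replicate 6 and Y-E replicate 6 are the 2 libraries with more than 12 *EPOR* counts, and Y-A replicate 1 shows 0 *EPOR* counts at a hemoglobin share of 12.1%. Y-A replicate 1 is also the library with the most genes at 0 counts (5457).

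Within stages, the regulators were set against a score of 33 erythroid target genes, the mean standardised log2 CPM of heme synthesis, membrane and red cell maturation genes. Stage means were removed from both sides, and libraries were permuted within stages 100000 times in two-sided tests, with adjustment over the 6 members. These p values, and those of the pairs and marker scores below, take the libraries as independent, although same-numbered libraries of the Y-A and Y-E groups deviated together. *KLF1* followed the score (Pearson r = 0.853, permutation p = 0.00114, adjusted p = 0.00684, Spearman rho = 0.732, adjusted permutation p of rho = 0.0158, n = 18). Without the 2 libraries farthest from the median score, replicate 6 of the Y-A and of the Y-E group, r was 0.470 (adjusted permutation p = 0.388), so this relation rested on them. With Y-E replicate 6 alone left out, r was 0.741 (adjusted permutation p = 0.0440) and rho 0.549 (adjusted permutation p = 0.143), so that the rank correlation no longer passed. Stage by stage, r of *KLF1* was 0.915 in the Y-A group (exact permutation p = 0.00278, adjusted over 18 relations 0.050), 0.945 in the Y-E group (exact permutation p = 0.0278, adjusted 0.125) and -0.43 in the Y-P group (exact permutation p = 0.406).

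*GATA1* (r = 0.594, rho = 0.484), *TAL1* (r = 0.402, rho = 0.366), *GFI1B* (r = 0.326, rho = 0.160) and *NFE2* (r = 0.0616, rho = 0.265) did not pass after adjustment, with adjusted permutation p of 0.0843, 0.107, 0.312 and 0.850 for r. *LMO2* went the other way, with r = -0.49 (adjusted permutation p = 0.0843) and rho = -0.58 (adjusted permutation p = 0.0339). Without the same 2 libraries r of *LMO2* was -0.30 and that of *GATA1* 0.394, and neither passed.

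**Figure D4:**
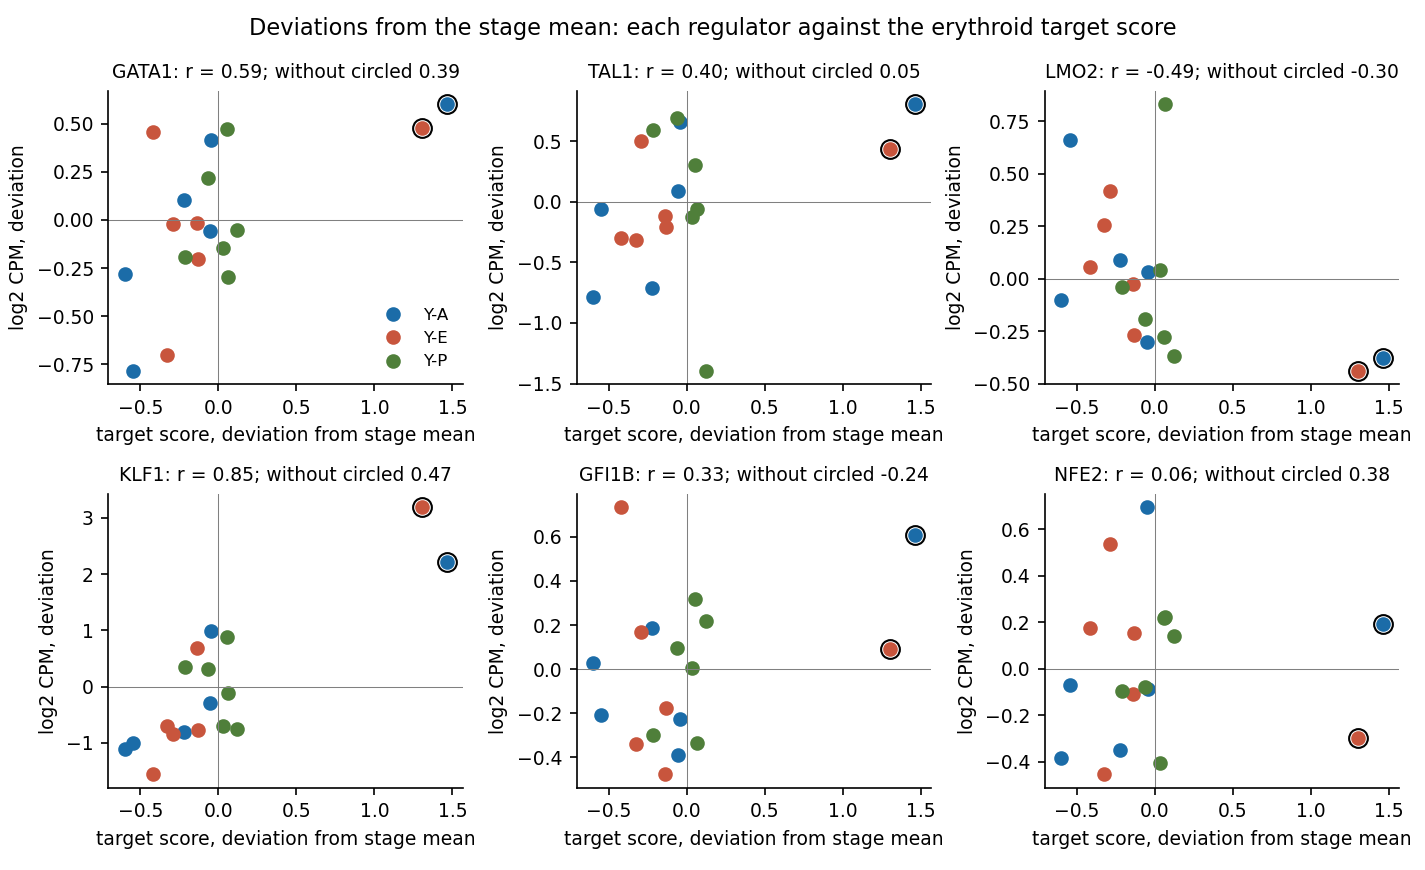
Deviation of each regulator from its stage mean in log2 CPM (vertical axis) against the deviation of the erythroid target score (horizontal axis), 1 point per library and coloured by stage, with replicate 6 of the Y-A and Y-E groups circled. The circled libraries sit alone at the right of each panel, and the Pearson r of *KLF1* drops from 0.853 to 0.470 without them.

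Of the 15 pairs of regulators, compared in the same way, 1 passed after adjustment. *KLF1* and *TAL1* deviated together (r = 0.613, permutation p = 0.00137, adjusted p = 0.0205), and r was 0.605 without the 2 libraries farthest from the median. The Spearman rho of 0.653 had an adjusted permutation p of 0.0640. *GATA1* with *GFI1B* (r = 0.635, rho = 0.604) and *GATA1* with *LMO2* (r = -0.59, rho = -0.52) each had an adjusted permutation p of 0.0620 for r. Against the marker scores of 7 other cell groups, 42 relations in all, *LMO2* rose and fell with the B cell genes (r = 0.742, adjusted permutation p = 0.0416, rho = 0.837, adjusted permutation p = 0.00588, n = 18). That r was 0.695 without the 2 libraries farthest from the median. No other of these relations passed.

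The genes with the most similar profiles were taken by Pearson r of log2 CPM over all 18 libraries and are given as a description. The genes closest to *KLF1* included *MARCHF2* (r = 0.955) and *ALAS2* (0.949), an enzyme of heme synthesis. *GATA1* was closest to *GNAQ* (0.851), which encodes a G protein subunit, *SMOX* (0.843), which encodes spermine oxidase, and *MARCHF2* (0.834). *TAL1* was closest to *MTSS1* (0.866), *ATG13* (0.829) and *TENT5A* (0.828). *GFI1B* had the loosest neighbours, *GALNT10* (0.782), *RNF216* (0.777) and *RD3* (0.774). *NFE2* was closest to *CYRIA* (0.952), *MXD1* (0.944), a MAX-binding repressor, and *BCL6* (0.938), a transcriptional repressor. *LMO2* was closest to *FUOM* (0.896), *CERS4* (0.852) and *ARHGAP24* (0.828). The libraries share their stage and their blood cell mixture, and these r values include both.

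Erythroid target genes, which encode globins, heme enzymes and red cell membrane proteins, lie downstream of the 7 genes. Of 33 tested targets, 14 were called as lower in the Y-P vs. Y-A comparison, beside 1.09% of all tested genes. None of the targets passed as higher there, and their median log2 fold change was -1.79. That median was -1.11 with the replicate block, -1.52 with library size only and -0.63 with limma on log2(FPKM + 1). With library size only 1 target passed as higher, and with limma also 1. *HBM*, a globin of the alpha cluster, was among the called targets with the smallest adjusted p. So were *ATP5IF1*, the inhibitor of mitochondrial ATP synthase, and *HBQ1*, the theta globin. *HBM* went from 21.6 to 100 CPM in the Y-A group to at most 0.714 CPM in the Y-P group (fitted log2 fold change -7.48, adjusted p = 0.000586, edgeR). With the Y-P values near 0, the fitted values of *HBM* give a direction but no measured fold. *ATP5IF1* went from 758 to 2591 CPM in the Y-A group to between 20.2 and 134 CPM in the Y-P group (log2 fold change -4.78, adjusted p = 0.000687, edgeR). *HBQ1* stood at -2.85 (adjusted p = 0.00761, edgeR).

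In the Y-P vs. Y-E comparison 8 targets were called as lower, beside 2.22% of all tested genes. By adjusted p 9 targets passed as lower, while 2 (*PPOX*, of heme synthesis, and *FBXO7*) passed as higher by less than 1 on the log2 scale. The leading 4 were *HBM* (fitted at -4.54, with the same limit, adjusted p = 0.00167), *ATP5IF1* (-2.41, adjusted p = 0.00660), *DMTN* and *TRIM58* (-2.46, adjusted p = 0.0208) in edgeR. *DMTN*, a membrane skeleton gene, was at 0 counts in all 6 Y-P libraries, so no fold is given for it, and the Y-E libraries ran from 0 to 23.6 CPM. Without Y-E replicate 6, 3 targets were called in that comparison, where 2.58% of all genes were. In Y-E vs. Y-A, 6 targets were then called as lower, beside 0.123% of all genes called in either direction. With all libraries 0 were called without a block and 1 with the replicate block, beside 0.0138% and 0.0758% of all genes. Among the 6 were *HBM*, *ALAS2*, *ALAD*, *SLC25A39* and *UROD*. The summed FPKM of the target list was 2330 to 8499 in the Y-A group, 579 to 4265 in the Y-E group and 508 to 730 in the Y-P group.

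The transmission of the erythropoietin signal rests on JAK2, STAT5 and adaptors that other cytokine receptors in blood also use. Of 25 genes listed for it, 20 were in the table and 18 were tested. None passed in Y-E vs. Y-A. In Y-P vs. Y-A, 2 passed as lower, beside 3.61% of all tested genes. They were the docking protein *GAB2* (-1.02, adjusted p = 0.00341, edgeR), which was called, and the ubiquitin ligase *CBL* (-0.75, adjusted p = 0.0176, edgeR). In Y-P vs. Y-E, 6 passed as lower and 4 of them were called, beside 8.68% and 2.22% of all tested genes. In edgeR the 4 were *GAB2* (-1.58, adjusted p = 0.000188), *CBL* (-1.07, adjusted p = 0.000800), the feedback inhibitor *SOCS3* (-1.06, adjusted p = 0.0153) and *TFR2* (-1.36, adjusted p = 0.0284), a transferrin receptor that binds EPOR. The other 2 were *SOS1* and *CRKL*. *TFR2* held an adjusted p of 0.0507 without Y-E replicate 6. With library size only, *GAB2* in Y-P vs. Y-A was at -0.84 (adjusted p = 0.00633, edgeR) and no gene of the list was called there, and in Y-P vs. Y-E 2 were called (*GAB2* and *TFR2*). With limma on log2(FPKM + 1) the calls were 0 and 1. *GAB2* ran from 206 to 284 CPM in the Y-A group, 214 to 456 in the Y-E group and 94.6 to 143 in the Y-P group. All pregnancy libraries thus lay below those of the Y-A and of the Y-E group, which held for 2.32% and 3.84% of tested genes. The kinase *JAK2* stood at -0.24 against anestrus and -0.64 against estrus in pregnancy, with adjusted p of 0.638 and 0.111, and *STAT5A* and *STAT5B* at -0.04 and -0.01 in Y-P vs. Y-A, with adjusted p of 0.857 and 0.960 in edgeR. The median of the 18 genes was 0.21, -0.26 and -0.41 in the 3 comparisons, and -0.08 in Y-P vs. Y-A with library size only.

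Among 27 tested partners and other erythroid regulators, none passed in Y-E vs. Y-A. In Y-P vs. Y-A 3 passed as lower, beside 3.61% of all tested genes: *E2F2* (-0.81), *SP1* (-0.44) and *RCOR1* (-0.58), a corepressor that GFI1B recruits. The balance of directions in that comparison depended on the scaling, with 2 higher and 1 lower with library size only and 5 higher and 1 lower with limma on log2(FPKM + 1). In Y-P vs. Y-E 8 passed as lower and 3 as higher, beside 8.68% and 5.77% of all tested genes. Of the 27, 1 was called, beside 2.67% of all tested genes. The 1 called was *SPI1*, the myeloid and B cell factor PU.1 that antagonises GATA1 (-1.16, SE 0.19; adjusted p = 0.000800, edgeR), with 486 to 1109 CPM in the Y-E and 287 to 355 CPM in the Y-P group. The 3 that passed as higher were *KDM1A* (0.40), the histone demethylase partner of GFI1B, *GFI1* (0.79), its paralog, and *SSBP2* (0.48). Without Y-E replicate 6, *GFI1* had an adjusted p of 0.0587. The median of the 27 was 0.09, -0.07 and -0.16 in the 3 comparisons, and turned to 0.10 and 0.01 in the pregnancy comparisons with library size only. Genes past the adjusted p but under 1 on the log2 scale were named here after their values were seen.

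Markers of other blood cells that express the members were read beside them. For megakaryocytes and platelets, no marker passed in Y-E vs. Y-A. The same 4 of 11 tested markers were called as lower in Y-P vs. Y-A and in Y-P vs. Y-E, beside 1.09% and 2.22% of all tested genes. They were *TUBB1*, the platelet beta tubulin (-1.21 and -1.25, adjusted p = 0.00234 and 0.000556), *VWF* (-2.30 and -1.71), *TREML1* (-1.37 and -1.26) and *GP1BA*, part of the von Willebrand factor receptor. *GP1BA* ran from 0 to 0.226 CPM in the Y-P and from 0.874 to 2.67 CPM in the Y-A group. The summed FPKM of the 13 platelet markers in the table was 259 to 426 in the Y-A, 281 to 368 in the Y-E and 196 to 369 in the Y-P group, with no marker at 0 in all libraries. Within stages, none of the members passed against the score of the platelet markers. The r was 0.283 for *GATA1* (rho = 0.393), 0.115 for *TAL1* (rho = 0.119), 0.440 for *GFI1B* (rho = 0.476) and 0.201 for *NFE2* (rho = 0.249). The adjusted permutation p ran from 0.341 to 0.699 for r and from 0.228 to 0.706 for rho (n = 18). Without the 2 libraries farthest from the median, r was 0.474, 0.392, 0.206 and 0.476 in the same order. The part of the platelet genes in the stage differences of these members was not tested.

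Of 10 tested neutrophil markers, 6 were called as lower in Y-P vs. Y-E, beside 2.22% of all tested genes. They were led by *CSF3R*, the receptor for granulocyte colony-stimulating factor (-1.09, adjusted p = 0.000426), *MGAM* (-1.45, adjusted p = 0.00120), *S100A9* (-1.59, adjusted p = 0.0115) and *LTF* (-2.88, adjusted p = 0.0136) in edgeR. In Y-P vs. Y-A *LTF* alone was called (-2.61, adjusted p = 0.0408, edgeR), beside 1.09% of all tested genes called as lower. None passed in Y-E vs. Y-A, where the list median was 0.62. Without Y-E replicate 6, *MMP9* (1.64, adjusted p = 0.0444) and *MGAM* (1.09, adjusted p = 0.0356) were called in edgeR as higher in estrus than in anestrus. In that fit 0.123% of all genes were called in either direction. These 2 genes were named after their values were seen. Summed over the 11 markers in the table, none of them at 0 in all libraries, FPKM was 3518 to 11649 in the Y-A, 4272 to 13768 in the Y-E and 3055 to 8540 in the Y-P group. Within stages the r of *NFE2* with the neutrophil score was 0.418 with an adjusted permutation p of 0.341 (rho = 0.368, adjusted permutation p = 0.364, and r = 0.548 without the 2 libraries farthest from the median), and the part of the neutrophil genes in the *NFE2* difference was not tested beyond that.

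Of 8 monocyte markers, *C1QA* was called as lower in both pregnancy comparisons (-1.37 and -1.39), beside 1.09% and 2.22% of all tested genes. *CD68* also passed as lower in Y-P vs. Y-E (-0.79), where 8.68% of all tested genes did. Of 8 basophil and eosinophil markers, *ADGRE1* was called as lower in Y-P vs. Y-E (-1.16, adjusted p = 0.0310, edgeR), beside 2.22% of all tested genes. Of 7 T cell markers 3 passed as higher in pregnancy than in anestrus (*CD3G*, *CD5* and *TCF7*) and 4 in pregnancy than in estrus (the same and *LCK*), none called, with list medians of 0.49 and 0.43. Over all tested genes 2.22% and 5.77% passed as higher in these comparisons. With library size only 7 and 6 of the T cell markers passed, and without Y-E replicate 6 the second count was 2. The most abundant of them, *CD3D* and *CD4*, averaged 188 and 147 FPKM. None of 9 B cell markers passed, and the most abundant, *CD79A* and *MS4A1*, averaged 360 and 165 FPKM. None of 5 tested progenitor markers passed either, the most abundant being *HLF* and *FLT3* at 5.13 and 4.12 FPKM, and the stem cell factor receptor *KIT* stood at -0.63 in Y-P vs. Y-A (adjusted p = 0.171, edgeR).

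**Figure D5:**
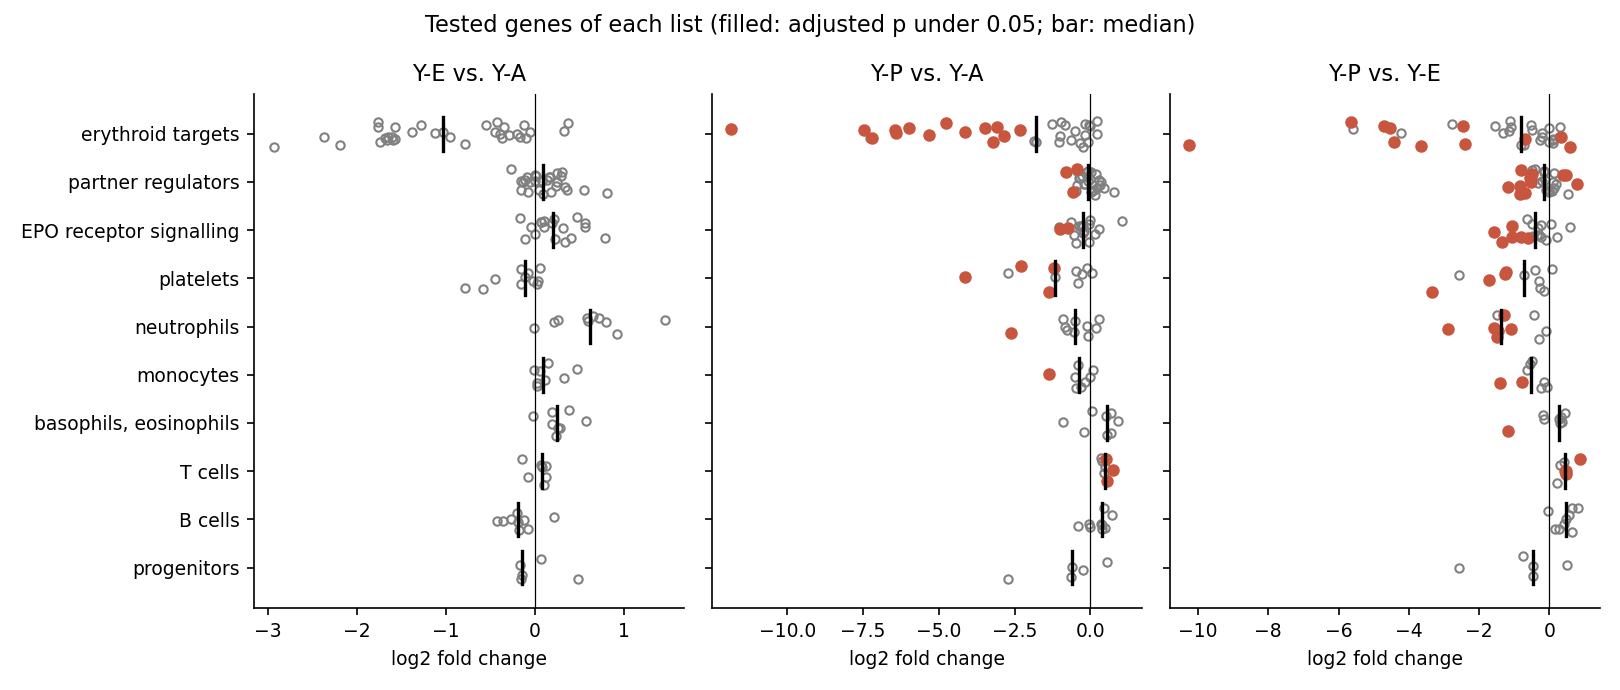
Log2 fold change (horizontal axis, a separate linear scale for each panel) of every tested gene of the 10 lists in the 3 comparisons, filled where the edgeR adjusted p is under 0.05, with the list median as a bar. In Y-P vs. Y-A all 14 filled erythroid targets lie to the left of -1, and in Y-P vs. Y-E 9 filled targets lie to the left of 0 and 2 to the right, beside 8 and 3 filled partner regulators. Fitted values of genes at or near 0 counts in the Y-P group, the points farthest to the left, give no measured fold.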

How the data were processed

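Poly(A) RNA of whole blood was sequenced in 18 libraries with strand-marking kits and paired reads. Per the labels and the study's methods the authors trimmed reads with Cutadapt 1.9, aligned them with HISAT2 2.2.1 to the Ensembl yak genome and assembled them with StringTie 2.1.6. They deposited 1 table of read counts and FPKM values per gene. The counter behind the count columns is not given in the sources used here, nor is any extraction or sequencing batch. No value column was left unused (0), and no libraries held identical values (0 pairs).

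Counts were tested with edgeR 4.0.16 (R 4.3.3; TMM factors 0.871 to 1.12; filterByExpr; stage as the only term), after a check on simulated counts. Alternatives used DESeq2 1.42.0, limma 3.58.1 on log2(FPKM + 1) or log2(FPKM + 0.1), library size only, no filter, left-out libraries and a replicate block. Correlations and ratios used scipy 1.17.1. CPM are edgeR values.

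The members and lists were chosen with earlier results of these data known. Named genes were the 7 members, up to 4 called genes per list and comparison by adjusted p (or the 2 with the highest mean FPKM where a list had none called), the 3 tested genes nearest to each member, and the hemoglobin genes by their summed share. Same-numbered libraries deviated together in Y-A and Y-E (r from 0.110 to 0.515 over the 6 pairs), so the block is given there and, for single members, in the pregnancy comparisons. The number is in the labels, but that it marks the cow is not stated. Alternatives without replicate 6 of both groups, the block without Y-E replicate 6, the ratio, the pairs and the other lists were chosen after seeing the data. Replicate spread here includes animals, and intervals cover counting error only. Yak sequences of the members were not used here. A result that the rule on named genes would have named is not reported here.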

Additional observations from a re-analysis of the deposited data

Results flagged for a closer look

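In 21 groups of 6 libraries (7 genes in 3 stages), 6 held a library whose gap to the nearest other was larger, as a share of the group's range, than Dixon's 95% critical value. For normally distributed values chance flags about 1 group in 20. The values here were CPM on a linear scale, and whether they follow such a distribution was not tested. The genes were read in the same libraries, so the flags are not independent and their number cannot be set against that rate. *KLF1* was at 53.7 CPM in Y-A replicate 6, where the other 5 libraries ran from 5.34 to 23.1 CPM, and at 22.5 CPM in Y-E replicate 6, where the others ran from 0.785 to 3.95 CPM. *EPOR* stood apart in the same 2 libraries, at 3.80 CPM in Y-A replicate 6 (others 0 to 0.361 CPM) and at 1.20 CPM in Y-E replicate 6 (others at 0, so that any count above 0 would have been marked and the rate of chance does not apply). *LMO2* stood apart in replicate 3 of the Y-A and Y-P groups, at 140 CPM in Y-A replicate 3 (others 68.2 to 94.3 CPM) and at 151 CPM in Y-P replicate 3 (others 65.4 to 87.0 CPM). *GATA1*, *TAL1*, *GFI1B* and *NFE2* held no such library in any stage.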

How the results depend on the processing

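The *KLF1* decrease from Y-A to Y-P was called in all 29 alternatives, from -4.06 to -2.18 on the log2 scale. Genes called in Y-E vs. Y-A numbered 2, and 11 with the replicate block, 34 with the block and without Y-E replicate 6, 14 with the DESeq2 Wald test, 12 without replicate 6 of both groups, and 2 to 18 over the fits without 1 library, the highest without Y-E replicate 6, beside 4 without Y-A replicate 1. Genes called in Y-P vs. Y-A numbered 208, and 128 and 343 with limma on log2(FPKM + 1) and log2(FPKM + 0.1), and 110 (without Y-P replicate 2) to 229 over the fits without 1 library. Leaving out Y-P replicate 4 gave 134 and leaving out replicate 5 of that group 136. Genes called in Y-P vs. Y-E numbered 387, and 143 with limma on log2(FPKM + 1), and 289 to 476 over the fits without 1 library.

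Members called in Y-E vs. Y-A were 0, and 1 with the replicate block, with or without Y-E replicate 6, and 0 to 1 over the fits without 1 library. Members called in Y-P vs. Y-E were 1, and 2 with the block (*KLF1* at -1.10, adjusted p = 0.0499, but -0.75 and 0.109 without Y-E replicate 6, where 1 member was called), 2 with the DESeq2 Wald test (*KLF1* at -2.10, adjusted p = 0.0375), 0 with library size only, 0 with either limma setting, and 0 to 1 over the fits without 1 library. The block moved no other member across the threshold. In the pregnancy comparisons the same-numbered libraries did not all correlate (r from -0.0492 to 0.369 and from -0.0544 to 0.400), and 4 of 6 pairs in each correlated best with their own number, against 6 of 6 in Y-E vs. Y-A. Differences near 0 changed sign. *GFI1B* in Y-P vs. Y-A was 0.0467 with library size only, and 0.0868 and 0.0960 with limma. *LMO2* in Y-P vs. Y-A was 0.11 without Y-A replicate 3, 0.02 and 0.01 when Y-P replicate 5 or 6 was left out, 0.0878 with library size only, and 0.13 with either limma setting. Over the fits without 1 library *LMO2* ran from -0.27 (without Y-P replicate 3) to 0.11 in Y-P vs. Y-A and from -0.0831 (likewise) to 0.23 in Y-P vs. Y-E. The within-stage r with the target score was 0.605 (*GATA1*) and 0.446 (*TAL1*) on log2(FPKM + 1), both past the threshold, and 0.470 (*KLF1*) and -0.24 (*GFI1B*) without the 2 libraries farthest from the median score. Except where a left-out library or a smaller scale of the values is the setting itself, the cause was not tested. *EPOR* was the one member below the count filter.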
